A study of Rattus norvegicus with 43 samples.

Results

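The genes described here are growth hormone and the receptors and regulators of the cells that make it, as measured in anterior pituitaries from 43 male rats. The members are the 9 genes Gh1, Ghrhr, Dlk1, Ghsr, Sstr1, Sstr2, Sstr3, Sstr5 and Ghr, chosen by name, of 14218 genes with a probe set annotated to that gene alone. They were measured by 14 of 31042 probe sets that were not controls, and each gene is represented by its probe set with the highest mean. Values are log2(intensity + 16) of the deposited intensities, and a probe set was tested where its mean lay above the median probe set, 7.16 on this scale. The representatives of 7 of the 9 genes passed this filter, Ghsr only just (mean 7.157 against 7.156), and those of Sstr5 and Ghr did not.

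The animals were F2 males from an intercross of F1 rats, which descended from Copenhagen (COP) females and ACI males. From 9 weeks of age each carried under the skin 5 mg of diethylstilbestrol (DES), an estrogen made by synthesis, and was killed 12 weeks later, at 21 weeks. A label of dividing cells, bromodeoxyuridine, had been injected at 50 mg/kg 4 hours earlier. All animals received the same treatment, so there was no untreated group. They had been picked from the extremes of pituitary weight (22 heavy and 21 light glands), but no label gives the weight class or genotype of an animal, and all 43 arrays were analysed as 1 group. Each array is a separate animal, named here by the number in its label. Because whole glands were measured, fewer cells of a type and less RNA per cell cannot be told apart.

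Somatotrophs are the pituitary cells that secrete growth hormone. Growth hormone-releasing hormone from the hypothalamus acts on the receptor Ghrhr, which raises cAMP, and ghrelin acts on Ghsr, whereas somatostatin restrains secretion through the Sstr receptors, which act through inhibitory G proteins. The hormone acts on distant tissues through Ghr, and insulin-like growth factor 1 feeds back on the gland. Dlk1 encodes a membrane protein related to the Notch ligands that somatotrophs are known to produce. Estrogen is best known in the rat pituitary as a growth stimulus for lactotrophs, the prolactin cells, which share with somatotrophs the transcription factor Pou1f1.

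The hormone and lineage genes of the anterior lobe were bright: the log2 level was 15.61 ± 0.14 for Prl (prolactin), 14.93 ± 0.36 for Cga (the alpha subunit shared by the glycoprotein hormones), 12.40 ± 0.91 for Tshb (the beta subunit of thyrotropin) and 12.78 ± 0.23 for Pou1f1 (SD, n = 43). Pomc, the corticotroph precursor, and Avp and Oxt, hormones of the posterior lobe, did not pass the filter, with median intensities of 29.2, 18.2 and 16.7. Animal 43 had an unusual array: its mean correlation with all others was 0.927, where the remaining arrays had 0.967 to 0.976, and its 3′ minus 5′ signal for actin was 1.97 on the log2 scale, where they had 1.26 to 1.67. In earlier results of these data many genes changed level between animals 22 and 23. Levels in animals 1 to 22 and 23 to 43 are therefore given as a description without a test, and relations between the members are given pooled and within these 2 sets, most of them also with the mean difference removed. The sizes of these sets, 22 and 21 animals, equal those of the heavy and light groups. No label links the sets to pituitary weight, and whether they are the weight classes was not tested.

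Promoter sequence outside annotated genes is shown for 3 members whose levels are related below, Ghrhr and Dlk1, which varied with Gh1, and Sstr2, which varied with Dlk1. The bases were taken from RefSeq on assembly GRCr8, 5′ to 3′ on the strand of the gene, and belong to the 250 bases before the annotated start. Windows were matched for 8 of the 9 members, all but Gh1. Capitals mark a cAMP response element (TGACGTCA) or a GC box (GGGCGG or its complement), and the motifs do not overlap in these windows. The interval is chr4:85830236-85830344 on the plus strand for Ghrhr (109 bases), chr6:134192347-134192490 on the plus strand for Dlk1 (144 bases) and chr10:99163103-99163352 on the plus strand for Sstr2 (250 bases).
Ghrhr: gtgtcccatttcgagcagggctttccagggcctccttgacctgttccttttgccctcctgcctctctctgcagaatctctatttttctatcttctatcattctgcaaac
Dlk1: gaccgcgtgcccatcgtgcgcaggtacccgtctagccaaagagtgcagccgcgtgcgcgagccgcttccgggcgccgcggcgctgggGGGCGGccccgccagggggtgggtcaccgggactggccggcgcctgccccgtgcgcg
Sstr2: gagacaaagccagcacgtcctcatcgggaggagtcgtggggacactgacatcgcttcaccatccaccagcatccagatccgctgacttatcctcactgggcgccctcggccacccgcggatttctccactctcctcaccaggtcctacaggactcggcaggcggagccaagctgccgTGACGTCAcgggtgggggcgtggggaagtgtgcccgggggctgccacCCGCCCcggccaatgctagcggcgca
In the promoter of Sstr2 the cAMP response element spans bases 73 to 66 before the start and a GC box bases 26 to 21. In the printed stretch of Dlk1 a GC box spans bases 163 to 158. Among 33469 rat promoter windows of this length, searched on both strands, 1.59% held TGACGTCA and 30.5% held the GC box. The letters TATNCAT, a core of sites for Pou1f1, were in no window of the members that was searched, and 8.73% of all windows held them.

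Gh1, the growth hormone gene, was measured by 1 probe set. Its intensity lay between 15968 (animal 2) and 51261 (animal 38), with a median of 32531, a 3.21-fold range. The log2 level averaged 14.97 ± 0.41 (SD, n = 43), and this SD exceeded those of all 200 probe sets nearest in level. No other member had an SD at this percentile, and the order of the members by it was Gh1, Dlk1 (99.5th), Sstr2 (88th), Ghrhr (84.5th), Sstr1 (76.5th), Sstr3 (71.5th) and Ghsr (67.5th) among those that passed the filter. The spread of Gh1 followed the animal numbers. Its log2 level was 14.66 ± 0.32 in animals 1 to 22 (lowest 13.96, median 14.78, highest 15.09) and 15.30 ± 0.16 in animals 23 to 43 (lowest 14.99, median 15.25, highest 15.65), a difference of -0.64, and 21 of the first 22 animals lay below the lowest of the later 21. Whether a probe set this bright was near the upper limit of the scanner was not tested.

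Ghrhr, the receptor through which the hypothalamus stimulates growth hormone, had a lowest, median and highest intensity of 68.1 (animal 20), 184.8 and 344.7 (animal 34). Its log2 level was 7.49 ± 0.31 in animals 1 to 22 and 7.97 ± 0.32 in animals 23 to 43, a difference of -0.49, and the sets overlapped, with 8 of the later 21 animals at or below the highest of the first 22. The other probe set of Ghrhr averaged 7.30 ± 0.41 and differed in the same direction (-0.38). It correlated with the representative at r = 0.44 (permutation P = 0.00314, adjusted P = 0.00628 over 6 pairs of probe sets; rho = 0.45, P = 0.0025, adjusted P = 0.0075; r = 0.44 without the 2 animals farthest from the median), and at 0.22 after removing the difference between the sets of animals.

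Dlk1 had the widest spread in log2 level among the 7 members that passed the filter (SD 0.68). Its intensity lay between 1162 (animal 15) and 6050 (animal 33), with a median of 3252, a 5.15-fold range after adding 16. The log2 level was 10.97 ± 0.56 in animals 1 to 22 and 11.91 ± 0.41 in animals 23 to 43, a difference of -0.94, with 14 of the first 22 animals below the lowest of the later 21. The lowest of the later animals were 38 and 43, at 2226 and 2278, and the same 2 animals had the highest Gh1, at 51261 and 50357.

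Ghsr, the ghrelin receptor, ranged between 55.8 and 266.9 in intensity around a median of 124.5, at the edge of the filter. Its log2 level was 7.07 ± 0.42 in animals 1 to 22 and 7.25 ± 0.41 in animals 23 to 43, and every one of the later animals lay at or below the highest of the first 22.

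Of the somatostatin receptors, Sstr3 varied least, between 694.0 (animal 43) and 1454 (animal 10) in intensity with a median of 1078 and an SD of 0.23 on the log2 scale. Among the representatives of these receptors it had the greatest difference between the sets of animals, and it ran opposite to Gh1, at 10.24 ± 0.21 in animals 1 to 22 and 10.04 ± 0.20 in animals 23 to 43, with the sets overlapping. Sstr2 lay between 178.3 (animal 43) and 594.4 (animal 32) with a median of 387.3, and its log2 level was 8.60 ± 0.29 in animals 1 to 22 and 8.65 ± 0.36 in animals 23 to 43. The lowest value of the representatives of Sstr2 and of Sstr3 thus came from the unusual array of animal 43. Without it the SD was 0.28 for Sstr2 (0.32 with it) and 0.21 for Sstr3. The other probe set of Sstr2 was lowest in animal 16, at 102.8. Its log2 level was 7.84 ± 0.32 in animals 1 to 22 and 8.04 ± 0.30 in animals 23 to 43, a difference of -0.20. Sstr1 lay between 128.3 (animal 40) and 413.0 (animal 22) with a median of 265.1, at 8.20 ± 0.31 in animals 1 to 22 and 8.09 ± 0.35 in animals 23 to 43.

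Sstr5 and Ghr were dim. Sstr5 lay between 6.9 (animal 33) and 101.5 (animal 22) with a median of 55.1, and Ghr between 2.2 (animal 7) and 93.4 (animal 23) with a median of 34.2. The SDs of these log2 levels were 0.49 and 0.46 with 16 added to the intensity, and 0.72 and 0.79 with 1 added. The 2 probe sets of Ghr, the receptor for the hormone itself, did not vary together (r = -0.22, permutation P = 0.147, adjusted P = 0.176; rho = -0.21, P = 0.171; r = -0.16 without the 2 farthest animals), so the gene has no single level here. After removing the difference between the sets of animals, r between these 2 probe sets was -0.40. Both were dim, with median intensities of 34.2 and 22.1. The second probe set of Sstr2 varied with the first (r = 0.47, P = 0.00174, adjusted P = 0.00522; rho = 0.53, P = 0.00028; r = 0.41 without the 2 farthest animals), as did 1 of the 2 other probe sets of Sstr1 (r = 0.52, P = 0.00059, adjusted P = 0.00354; rho = 0.39, P = 0.0107; r = 0.33 without the 2 farthest animals). The third probe set of Sstr1 was at r = 0.11 with the representative (P = 0.487; rho = -0.06, P = 0.686).

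**Figure D1:**
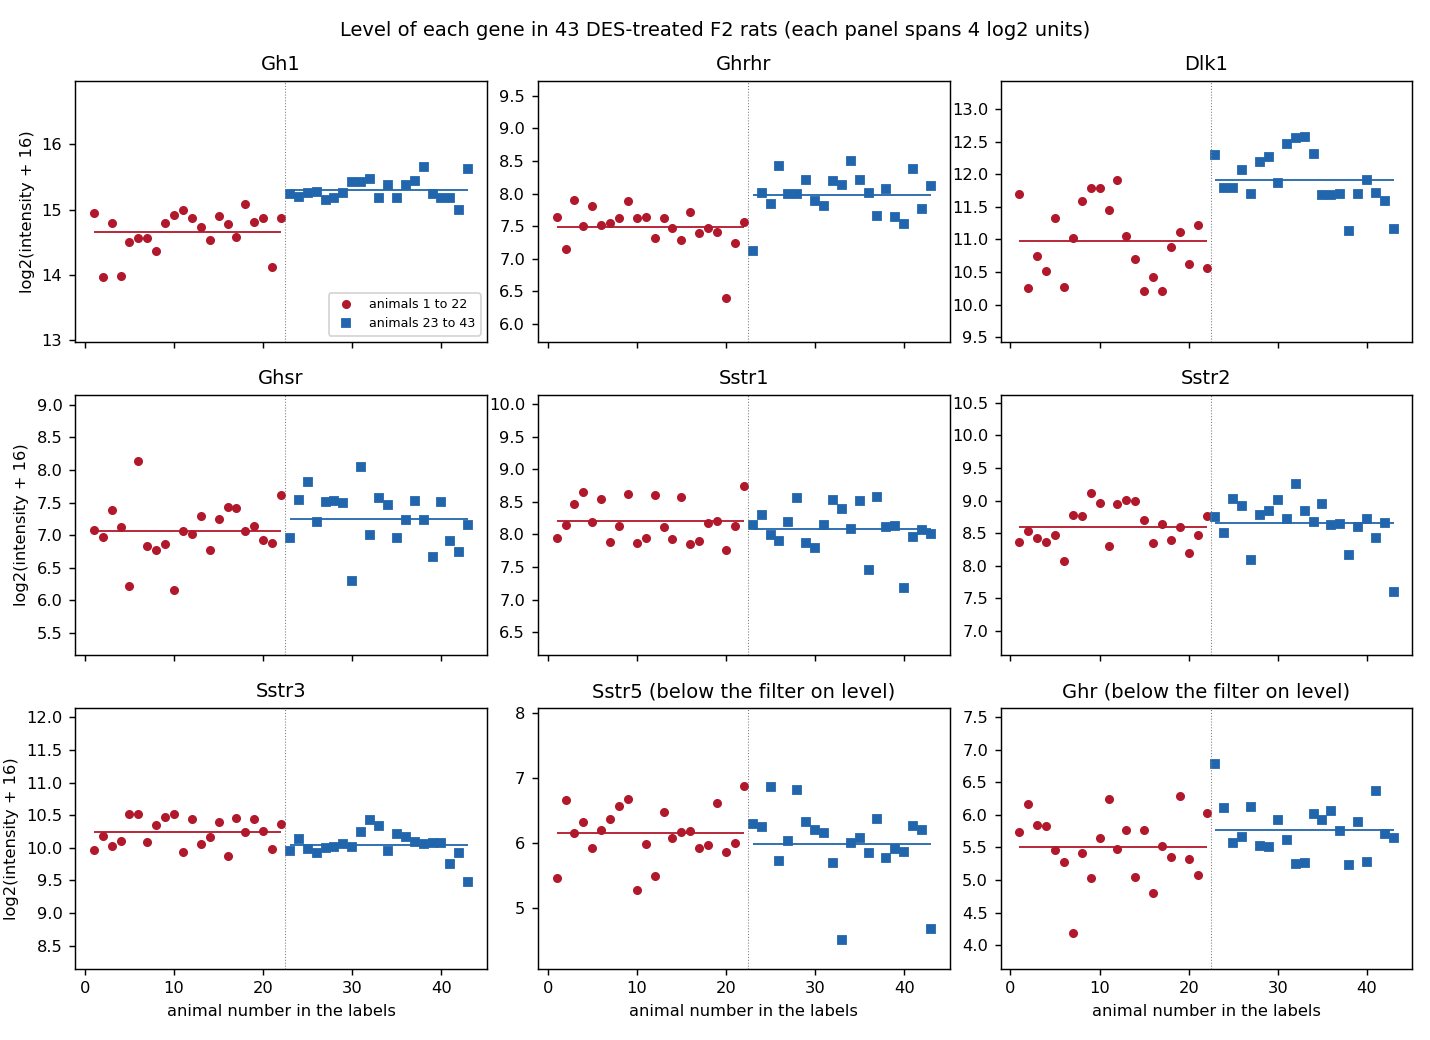
The log2(intensity + 16) level of each of the 9 genes (vertical axis, 4 units in every panel) against the animal number (horizontal axis), with 1 point per animal, animals 1 to 22 as circles and 23 to 43 as squares, and horizontal lines at the mean of each set. Gh1 lay at 14.66 and 15.30 on average in these sets and Dlk1 at 10.97 and 11.91. The representative of Sstr2 differed by 0.05 and had its lowest value in animal 43. Its other probe set, not drawn, differed by -0.20 and was lowest in animal 16.

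Whether the regulators varied with the hormone was examined by regressing each of 15520 probe sets on Gh1 across the 43 animals. At an adjusted P of 0.05 (limma, adjusted over all probe sets tested), 1870 probe sets were higher and 1865 lower where Gh1 was higher, 24.1% in all and 12% in each direction. Of the 6 other members that were tested, 2 were called, Ghrhr and Dlk1, both higher where Gh1 was higher. Set against a background of 24.1%, 2 of 6 is not a result about the members as a set. The median r was 0.003 and the median size of r was 0.22 over all probe sets tested.

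Ghrhr was higher by 0.53 ± 0.12 (SE) on the log2 scale for each log2 unit of Gh1. The correlation was r = 0.54 (permutation P = 0.00018, limma adjusted P = 0.00134) and rho = 0.64 (P = 3e-05), and r = 0.52 without the 2 animals farthest from the median of Gh1. Within the sets it was 0.11 in animals 1 to 22 and 0.15 in animals 23 to 43, and with the difference between the sets as a covariate it was 0.12 (adjusted P = 0.776). The other probe set of Ghrhr behaved likewise, with r = 0.45 pooled (permutation P = 0.00254, adjusted P = 0.0113; rho = 0.47, P = 0.00163; 0.47 without the 2 farthest animals) and 0.15 with the covariate. The pooled relation of the releasing-hormone receptor to the hormone was thus not called with the covariate. In either set alone limma called 0 probe sets on Gh1, so the lack of a call there cannot decide whether a relation was absent.

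Dlk1 was higher by 1.03 ± 0.20 (SE) for each log2 unit of Gh1, with r = 0.61 (permutation P = 4e-05, limma adjusted P = 0.000135), rho = 0.64 (P = 4e-05) and r = 0.54 without the 2 farthest animals. It was r = 0.28 in animals 1 to 22 and -0.23 in animals 23 to 43, and 0.14 with the covariate (adjusted P = 0.721). The negative value among the later animals rested on animals 38 and 43, without which r was 0.36 in the remaining 19. This relation, too, was not called with the covariate. It was not called in either set alone, where limma called 0 probe sets on Gh1 and the test cannot decide.

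None of the other members passed the test against Gh1. Sstr3 was at r = -0.33 (permutation P = 0.033, limma adjusted P = 0.0978; rho = -0.34, P = 0.027; -0.39 without the 2 farthest animals), with 0.12 in animals 1 to 22, -0.09 in animals 23 to 43 and 0.05 with the covariate. Without animal 21 its adjusted P was 0.0449, the only omission of an animal that changed the number of members called. Ghsr was at r = 0.22 (P = 0.166, adjusted P = 0.296; rho = 0.27, P = 0.0793; 0.22 without the 2 farthest animals) and 0.09 and 0.02 within the sets and 0.06 with the covariate. Sstr1 was at r = -0.16 (P = 0.303, adjusted P = 0.465; rho = -0.14, P = 0.37; -0.08 without the 2 farthest animals) and -0.08 and 0.01 within the sets and -0.05 with the covariate. Its dimmer probe sets, below the filter, had the opposite sign, at 0.14 (P = 0.382, adjusted P = 0.65 with no filter; rho = 0.20, P = 0.199; 0.16 without the 2 farthest animals; 0.07 and 0.006 within the sets) and 0.25 (P = 0.102, adjusted P = 0.325 with no filter; rho = 0.23, P = 0.148; 0.26 without the 2 farthest animals; 0.33 and 0.11 within the sets). Sstr2 was at r = 0.03 (P = 0.845, adjusted P = 0.907; rho = 0.11, P = 0.465; -0.04 without the 2 farthest animals) and 0.08 and -0.29 within the sets, and at 0.39 in animals 23 to 43 without animals 38 and 43. Its other probe set was at 0.20 (P = 0.205, adjusted P = 0.349; rho = 0.20, P = 0.208; 0.27 without the 2 farthest animals; -0.03 and -0.25 within the sets). For the dim genes, tested only when no filter was applied (11.3% of probe sets called), r was -0.30 for Sstr5 (P = 0.0489, adjusted P = 0.194; rho = -0.27, P = 0.0793; -0.24 without the 2 farthest animals; -0.34 and -0.31 within the sets) and 0.21 for Ghr (P = 0.172, adjusted P = 0.421; rho = 0.21, P = 0.166; 0.37 without the 2 farthest animals; 0.07 and -0.26 within the sets). The other probe set of Ghr was at 0.40 (P = 0.0067, adjusted P = 0.0518 with no filter; rho = 0.39, P = 0.0108; 0.41 without the 2 farthest animals; 0.10 and 0.10 within the sets).

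Few probe sets were called on Gh1 once the difference between the sets of animals was taken out. With it as a covariate, 12 were higher and 6 lower (0.116% of those tested), and 2026 had an unadjusted P under 0.05. In animals 1 to 22 alone limma called 0 probe sets (0%), with 1501 at an unadjusted P under 0.05, and in animals 23 to 43 alone it called 0, with 1924.

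The gene whose pattern was most like that of Gh1 was Cga, the subunit shared by thyrotropin and the gonadotropins, with r = 0.89 over 43 animals (adjusted P = 4.51e-12; rho = 0.92; permutation P = 1e-05, the smallest the permutations can give; 0.86 without the 2 farthest animals). The next was Tshb, the other subunit of thyrotropin, at r = 0.87 (adjusted P = 8.52e-12; rho = 0.88; permutation P = 1e-05; 0.86 without the 2 farthest animals). These were among the 18 probe sets called with the covariate, at r = 0.69 for Cga (adjusted P = 0.0122) and 0.63 for Tshb (adjusted P = 0.0134). Within the sets r was 0.66 in animals 1 to 22 and 0.79 in animals 23 to 43 for Cga, and 0.63 and 0.69 for Tshb. Without animals 38 and 43, those in animals 23 to 43 were 0.72 and 0.37. Tshb changed by 1.94 ± 0.16 (SE) and Cga by 0.79 ± 0.06 for each log2 unit of Gh1. Whether these correlations differed from those of Ghrhr and Dlk1 was not tested.

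**Figure D2:**
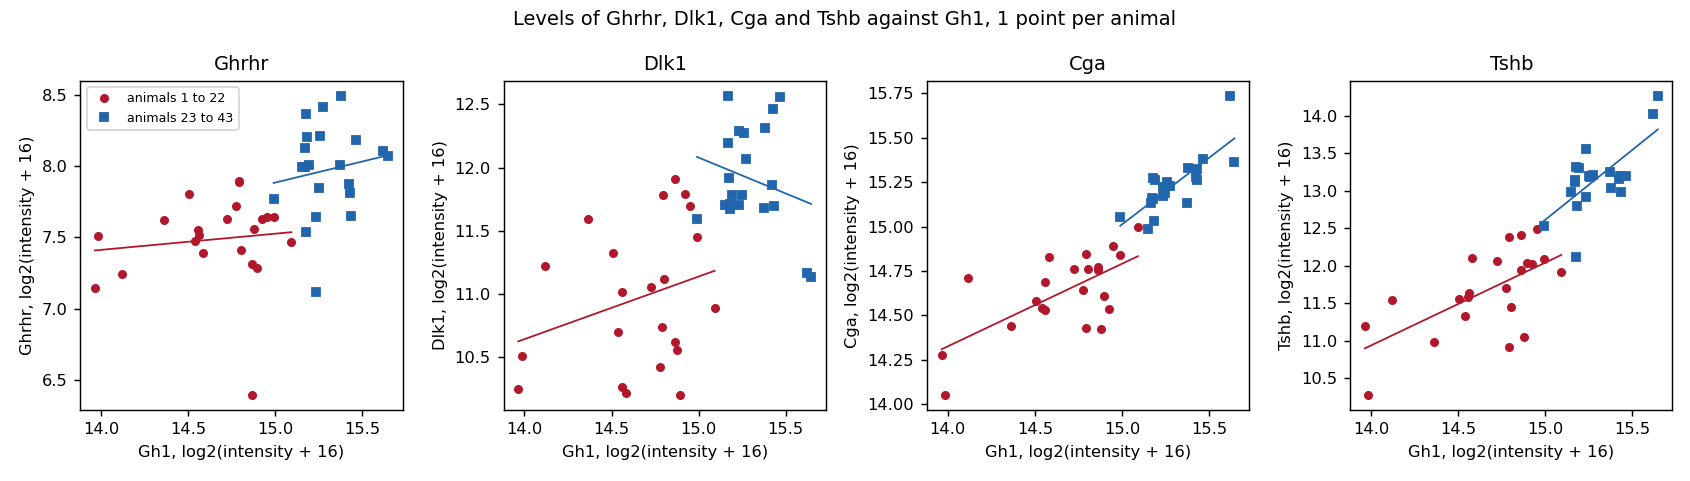
Log2(intensity + 16) of Ghrhr, Dlk1, Cga and Tshb (vertical axes) against that of Gh1 (horizontal axes), 1 point per animal, with animals 1 to 22 as circles and 23 to 43 as squares and a least-squares line for each set. The lines of Cga and Tshb rise in both sets (r between 0.63 and 0.79), and for Ghrhr r was 0.11 in animals 1 to 22 and 0.15 in animals 23 to 43.

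The rest of the 10 genes with the highest r were Gpm6a (a neuronal membrane glycoprotein, 0.85), Ndn (the imprinted gene of necdin, 0.85), Car2 (carbonic anhydrase, 0.85), Csrp2 (0.85), Itpr1 (the calcium channel of the endoplasmic reticulum opened by inositol trisphosphate, 0.85), Tmem179 (0.84), Fgf13 (0.82) and Fshb (the beta subunit of follitropin, 0.82). With the covariate, Gpm6a (0.57), Car2 (0.59), Itpr1 (0.66) and Tmem179 (0.60) kept an adjusted P of at most 0.0437, whereas Ndn, Csrp2, Fgf13 and Fshb had adjusted P between 0.0522 and 0.147. The 10 genes with the lowest r were Fam107b (-0.80), Slc40a1 (the iron exporter ferroportin, -0.80), Nell1 (-0.80), C2cd4a (-0.80), Rarres1 (-0.79), Rp1l1 (-0.79), Plekha5 (-0.78), Bcl11b (a zinc finger transcription factor, -0.78), Entpd3 (-0.78) and Dab2 (-0.78), and none of them passed the test with the covariate (adjusted P between 0.0732 and 0.258). Zrsr2, a splicing factor gene, was at r = 0.07 with Gh1 across all animals (adjusted P = 0.77) but was called with the covariate (r = 0.62, adjusted P = 0.0257; 0.72 in animals 1 to 22 and 0.35 in animals 23 to 43). The 5 genes lowest in r with the covariate were Lrp12 (-0.59), Ttbk2 (-0.59), Fbxl14 (-0.58), Gpatch8 (-0.58) and Wnk1 (-0.55), of which Ttbk2 passed the test (adjusted P = 0.0437) and the others did not (0.0522 to 0.0875).

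Other genes of the axis were read from lists of pathway members in the same regression on Gh1. Over all probe sets tested, 12% were called in each direction and 24.1% in all, which is the background for each count of a list. Among the transcription factors of somatotrophs, 7 of 12 were tested, 2 were higher and 1 lower where Gh1 was higher, and the median r was 0.26. Nr3c1, the glucocorticoid receptor, was at r = 0.70 (adjusted P = 1.09e-05) and Pou1f1, which drives the growth hormone and prolactin genes, at 0.50 (adjusted P = 0.00544), while Foxo1 was at -0.38 (adjusted P = 0.0405). Within the sets, Nr3c1 was at 0.07 in animals 1 to 22 and 0.53 in animals 23 to 43, Pou1f1 at 0.32 and 0.48, and Foxo1 at -0.42 and -0.34.

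Of the ligands, Igf1, the growth factor that mediates much of the action of growth hormone, and Igf2 were the 2 tested of 6, and both were lower where Gh1 was higher. Igf1 was at r = -0.42 (adjusted P = 0.024; 0.02 and -0.14 within the sets) and Igf2 at -0.57 (adjusted P = 0.000536; -0.27 and -0.21 within the sets). Among the genes of the growth hormone receptor pathway, 14 of 20 were tested, 2 were higher and 2 lower, with a median r of -0.06. The binding proteins Igfbp2 (r = 0.65, adjusted P = 5.03e-05) and Igfbp5 (0.60, adjusted P = 0.000236) were higher, and the signal transducer Stat3 (-0.55, adjusted P = 0.000985) and the docking protein Irs2 (-0.55, adjusted P = 0.00131) were lower. Within the sets, r was 0.47 in animals 1 to 22 and 0.16 in animals 23 to 43 for Igfbp2, 0.32 and 0.16 for Igfbp5, -0.18 and -0.13 for Stat3, and -0.48 and -0.28 for Irs2. Jak2, Stat5a and Stat5b, the kinase and transcription factors that the receptor uses first, were at 0.09, 0.17 and 0.17 and did not pass the test.

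In the cAMP pathway, through which Ghrhr signals, 17 of 25 genes were tested, none was higher and 3 were lower, against 12% of all probe sets in each direction, with a median r of -0.19. The 3 were the adenylyl cyclase Adcy2 (r = -0.57, adjusted P = 0.000895), the transcription factor Atf1 (-0.61, adjusted P = 0.000895) and the phosphodiesterase Pde4b, which breaks cAMP down (-0.46, adjusted P = 0.0204). Their r was -0.42, -0.38 and -0.41 in animals 1 to 22 and -0.47, -0.67 and -0.08 in animals 23 to 43. Of the genes that act with the somatostatin receptors, inhibitory G proteins, their regulators and potassium channels, 12 of 16 were tested, with 2 higher, 2 lower and a median r of 0.06. Rgs4 (0.62, adjusted P = 0.00011), a regulator that shortens G protein signals, and the G protein subunit Gnb1 (0.47, adjusted P = 0.0197) were higher, and Rgs16 (-0.49, adjusted P = 0.0073) and Gnao1 (-0.41, adjusted P = 0.0286) were lower. In animals 1 to 22 and 23 to 43, r was -0.02 and 0.25 for Rgs4, 0.46 and 0.31 for Gnb1, -0.23 and -0.21 for Rgs16, and -0.14 and -0.35 for Gnao1. Of the Notch pathway, to whose ligands Dlk1 is related, 6 of 10 genes were tested. The target genes Heyl (0.47, adjusted P = 0.00788) and Hey1 (0.41, adjusted P = 0.0226) were higher and the ligand Jag2 was lower (-0.60, adjusted P = 0.000254), with a median r of 0.31. In animals 1 to 22 and 23 to 43 these were at 0.26 and 0.11 (Heyl), 0.21 and -0.11 (Hey1), and -0.06 and -0.42 (Jag2).

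Markers of other cell types of the gland are given beside the same background of 12% of probe sets called in each direction and 24.1% in all. All 6 gonadotroph markers tested of 9 were higher where Gh1 was higher, with a median r of 0.76, among them Cga, Fshb and Nr5a1 (0.81, adjusted P = 4.86e-09). For Fshb, Foxl2, Gnrhr and Lhb, r was 0.38, 0.42, 0.33 and 0.34 in animals 1 to 22. It was 0.66, -0.07, 0.09 and 0.26 in animals 23 to 43. Of the lactotroph list, 7 of 9 were tested, with 4 higher and 1 lower and a median r of 0.40. Prl itself was at 0.32 (adjusted P = 0.137), the calcium-binding protein Calb1 at 0.74 (adjusted P = 6.33e-07) and the dopamine receptor Drd2 at -0.55 (adjusted P = 0.00131). In animals 1 to 22 and 23 to 43, r was -0.09 and 0.62 for Prl, 0.59 and 0.36 for Calb1, -0.37 and -0.20 for Drd2, and 0.51 and 0.49 for Nr5a1. Of 4 thyrotroph markers, 2 were tested and Tshb was called. Of the endothelial list, 4 of 6 tested genes were higher and none lower, of the folliculostellate and stem cell list 3 of 6 higher and none lower, and of the posterior lobe and neural list 1 of 5 higher. The macrophage list had 1 higher and 2 lower of 10 tested, the fibroblast list 1 and 1 of 3, the estrogen-responsive list 2 and 2 of 7, and the proliferation list 1 and 3 of 17. The corticotroph list had its 1 tested gene, Pcsk2, lower. With no filter, 4 corticotroph genes were tested, with 2 higher, 1 lower and a median r of 0.44, where 11.3% of all probe sets were called. Of 4 erythroid genes tested, none was called. The shares called in the macrophage and proliferation lists, and in that of the growth hormone receptor pathway, were near the background. Whether the share of any list differed from the background was not tested. The part of these cell types in the level of Gh1 was not tested.

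Across the 18 lists, 32 entries were called higher and 21 lower of 132 tested, against 24.1% of all probe sets, some genes standing in more than 1 list. With the difference between the sets of animals as a covariate, 2 entries were called, Cga and Tshb, against 0.116% of all probe sets. None was called in either set alone, where no probe set at all was called on Gh1.

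**Figure D3:**
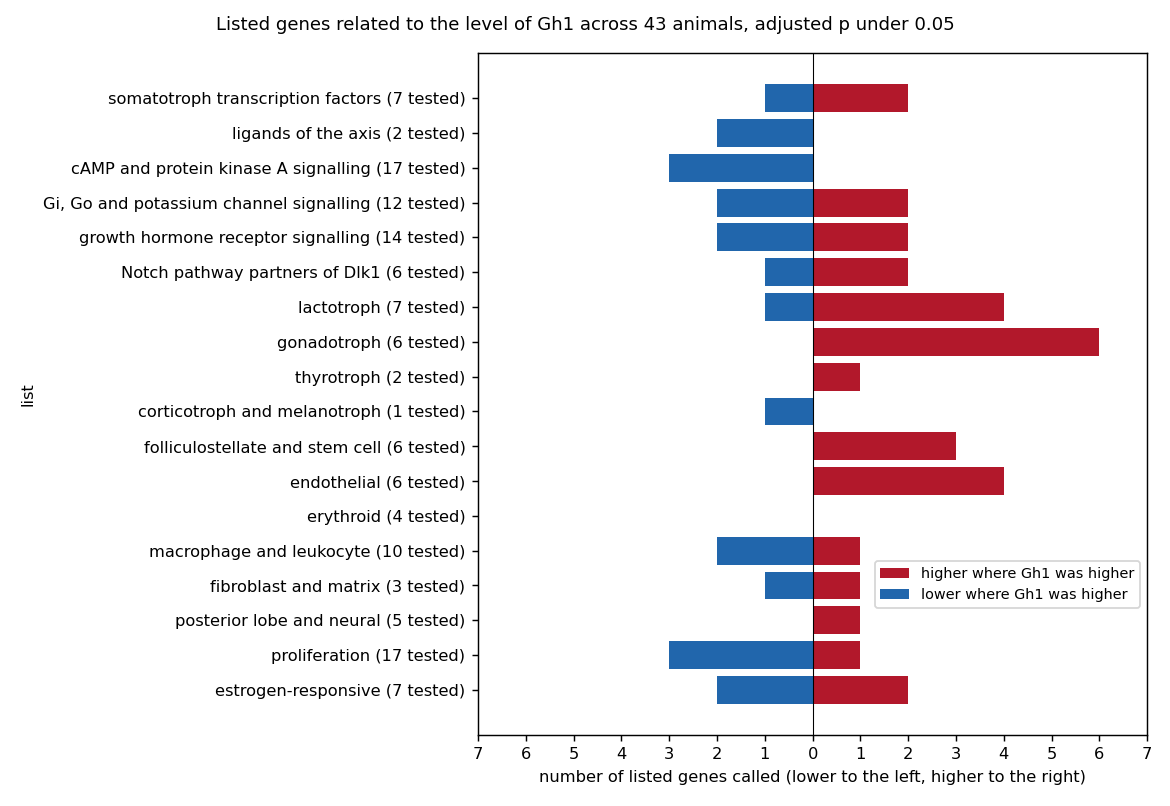
Number of genes of each list called in the regression on Gh1 across 43 animals (limma, adjusted P under 0.05), with genes higher where Gh1 was higher to the right of 0 and genes lower to the left. All 6 gonadotroph genes tested lie to the right, and the 3 called of 17 in the cAMP pathway lie to the left, where 12% of all probe sets were called in each direction. Whether the share of a list differed from this background was not tested.

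Among the members other than Gh1, the 15 pairs that both passed the filter were examined, of 36 pairs in all. The predictor of a pair was the gene named first in the opening list of members, and the adjusted P of the reverse regression is not given. The background differed greatly between predictors: Ghrhr called 2.87% of probe sets, Dlk1 10.8%, Sstr2 13.1%, Sstr3 15.3%, and Ghsr and Sstr1 called 0, with 850 and 759 probe sets at an unadjusted P under 0.05. The pairs called were Ghrhr with Dlk1 and Dlk1 with Sstr2.

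Ghrhr and Dlk1 were at r = 0.54 (permutation P = 0.00016, limma adjusted P = 0.0149; rho = 0.54, P = 0.00025; 0.50 without the 2 farthest animals), with 0.32 in animals 1 to 22 and 0.03 in animals 23 to 43. With the covariate, under which Ghrhr called 0 probe sets (534 at an unadjusted P under 0.05), r was 0.20 (adjusted P = 0.994), so that Gh1, Ghrhr and Dlk1 had no called relation to each other once the difference between the sets was removed.

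Dlk1 and Sstr2 were at r = 0.42 (permutation P = 0.00474, limma adjusted P = 0.0404; rho = 0.48, P = 0.00145; 0.47 without the 2 farthest animals). Within the sets r was 0.40 in animals 1 to 22 and 0.67 in animals 23 to 43, and the pair was called with the covariate (r = 0.51, adjusted P = 0.0373), under which Dlk1 called 1.73% of probe sets. In each set alone it did not pass the test (adjusted P = 0.406 and 0.0952). It was called without animal 43 (r = 0.45, adjusted P = 0.0221; 14.6% of probe sets called), was at 0.45 in animals 23 to 43 without animals 38 and 43, and was not called when no filter was applied (adjusted P = 0.0805), with array quality covariates (r = 0.34, adjusted P = 0.124), a smooth trend along the animal numbers (0.39, adjusted P = 0.292) or differences between consecutive animals (0.29, adjusted P = 0.431), nor with array medians subtracted (0.38, adjusted P = 0.0758) or after quantile normalization (0.39, adjusted P = 0.0628).

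Sstr2 and Sstr3 were at r = 0.39 (permutation P = 0.0103, limma adjusted P = 0.0623; rho = 0.24, P = 0.127; 0.15 without the 2 farthest animals), with 0.30 in animals 1 to 22 and 0.65 in animals 23 to 43. With the covariate, under which Sstr2 called 19.8% of probe sets, the pair was called (r = 0.48, adjusted P = 0.0129), but without animal 43 r was 0.21 (adjusted P = 0.6). The pair was also called in animals 23 to 43 alone (adjusted P = 0.0338), where Sstr2 called 918 probe sets higher and 494 lower of 15519. Among those animals r was 0.42 without animals 38 and 43. How widely the representatives of these receptors varied with other genes also depended on the array of animal 43. Without it Sstr2 called 23 probe sets (14 higher and 9 lower, 0.148%), against 2030 with it. Sstr3 called 0 without it (2150 at an unadjusted P under 0.05), against 2375 with it. For Sstr2 it depended on the probe set too. The mean of all its probe sets, with all 43 animals, called 157 higher and 55 lower of 12215. Sstr1 and Sstr3 were at r = 0.35 (permutation P = 0.0207; rho = 0.39, P = 0.0105; 0.41 without the 2 farthest animals; 0.36 and 0.27 within the sets; 0.31 with the difference removed) and did not pass the test with Sstr1 as the predictor (adjusted P = 0.937). Dlk1 and Ghsr were at r = -0.01 pooled (permutation P = 0.963; rho = 0.08, P = 0.627), with -0.59 in animals 1 to 22 and 0.28 in animals 23 to 43, neither of which passed the test (adjusted P = 0.211 and 0.48).

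**Figure D4:**
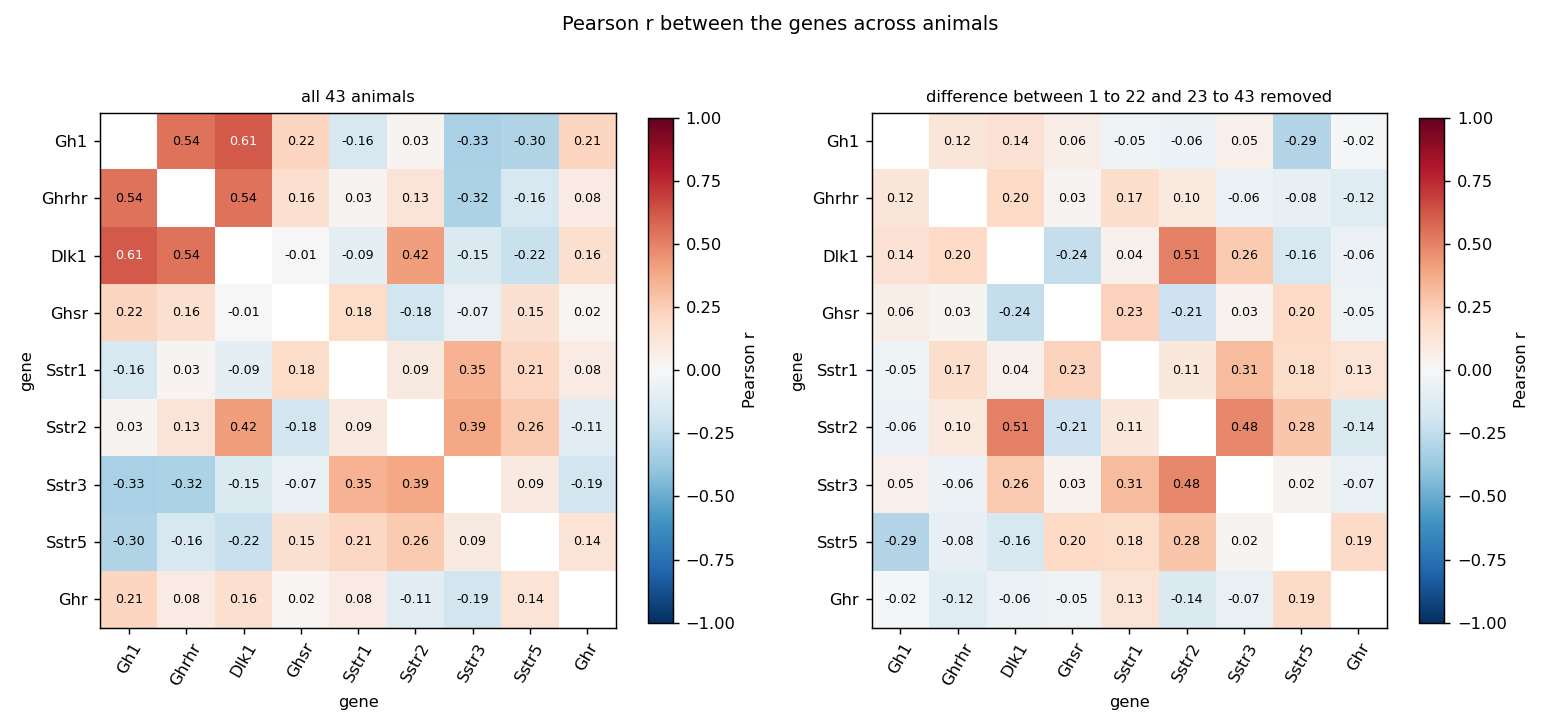
Pearson r between the 9 genes across 43 animals (left) and after removing the mean difference between animals 1 to 22 and 23 to 43 (right), each cell holding its value on a scale of -1 to 1. The block of Gh1, Ghrhr and Dlk1 holds 0.54 to 0.61 on the left and 0.12 to 0.20 on the right, whereas Dlk1 with Sstr2 holds 0.42 and 0.51.

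**Figure D5:**
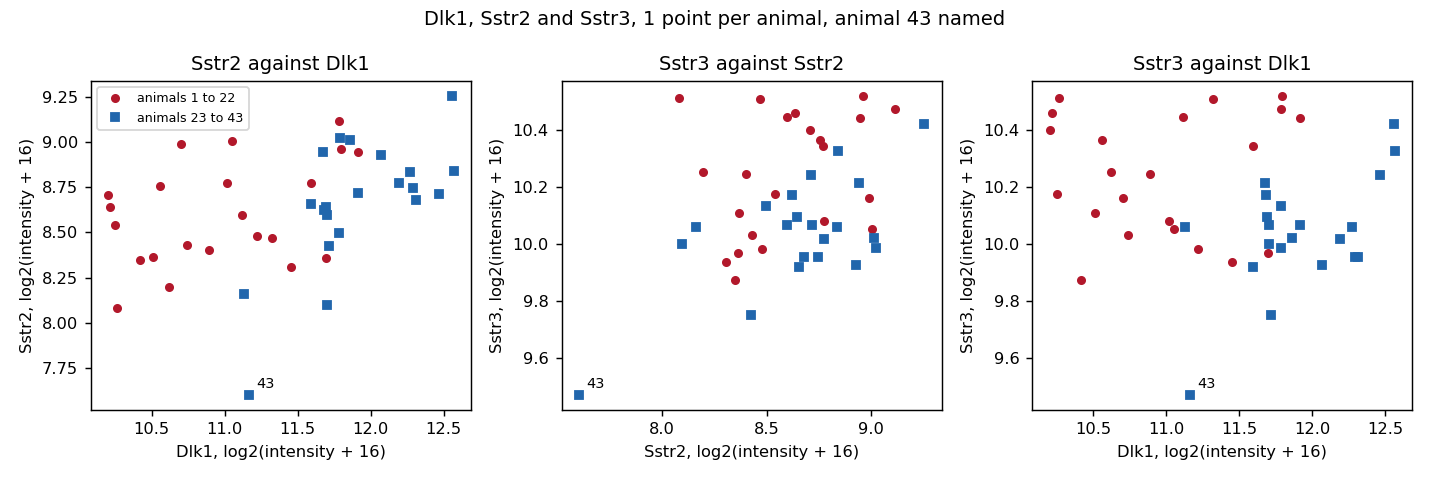
Log2(intensity + 16) of Sstr2 against Dlk1, Sstr3 against Sstr2 and Sstr3 against Dlk1, 1 point per animal, with animals 1 to 22 as circles and 23 to 43 as squares and animal 43 named. Animal 43 has the lowest value of Sstr2 and of Sstr3, at 7.60 and 9.47.

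Because the cross was made to map expression, the 5 nearest measured genes on each side of each tested member were read in the regression on that member, in the order of the RefSeq genes. Gh1, Sstr2 and Sstr5 are on chromosome 10, Dlk1 and Sstr1 on chromosome 6, Ghr and Ghsr on chromosome 2, Ghrhr on chromosome 4 and Sstr3 on chromosome 7. Of 10 neighbours each, 2 were called for Gh1, Ghrhr, Dlk1 and Sstr2 and none for Ghsr, Sstr1 and Sstr3. For Gh1 these were the helicase gene Ddx5 (r = 0.46, adjusted P = 0.016; 0.65 in animals 1 to 22 and -0.00106 in animals 23 to 43) and Ftsj3 (r = 0.39, adjusted P = 0.0431; 0.39 and -0.11), 2 of 10 against a background of 24.1%. For Ghrhr they were Nt5c3a (r = 0.62, adjusted P = 0.00855; 0.48 and 0.23) and Fkbp9 (r = -0.50, adjusted P = 0.0256; 0.02 and -0.18), against 2.87%. None of these 4 was called with the covariate.

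The neighbour of Dlk1 with the highest size of r was Wdr25, at -0.75 (adjusted P = 3.09e-06), with -0.62 in animals 1 to 22, -0.16 in animals 23 to 43 and -0.45 with the covariate (adjusted P = 0.0792). Ppp2r5c, a subunit of protein phosphatase 2A, was at -0.42 (adjusted P = 0.0474; -0.08 and 0.11 within the sets). These are 2 of 10 neighbours against a background of 10.8%. For Sstr2, the zinc transporter gene Slc39a11 was at 0.57 (adjusted P = 0.0078; 0.32 in animals 1 to 22 and 0.75 in animals 23 to 43) and Cog1, of the Golgi complex, at 0.42 (adjusted P = 0.0402; 0.62 and 0.50), and both were called with the covariate (adjusted P = 0.0019 and 0.00573). These are 2 of 10 against a background of 13.1%, or 19.8% with the covariate. Without animal 43 they were at 0.43 (adjusted P = 0.203) and 0.18 (adjusted P = 0.66), and neither was called. Sstr2 then called 0.148% of all probe sets.

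Array quality was set beside Gh1. The 3′ minus 5′ signals of actin and GAPDH were at r = 0.12 (permutation P = 0.428, adjusted P = 0.428; rho = 0.00, P = 0.992; -0.10 without the 2 farthest animals) and 0.31 (P = 0.045, adjusted P = 0.111; rho = 0.24, P = 0.123; 0.21 without the 2 farthest animals) with Gh1, and the array median at 0.28 (P = 0.074, adjusted P = 0.111; rho = 0.24, P = 0.129; 0.28 without the 2 farthest animals), adjusted over these 3 relations. Within the sets r was -0.07 in animals 1 to 22 and 0.15 in animals 23 to 43 for actin, 0.04 and 0.13 for GAPDH and 0.03 and 0.07 for the array median, and with the difference removed it was 0.03, 0.07 and 0.03. With the actin and GAPDH signals as covariates, but not the array median, the number of members called on Gh1 remained 2.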

How the data were processed

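Total RNA of 43 anterior pituitaries was biotin-labelled and hybridised to 1 single-colour array per animal. The authors deposited 1 linear intensity per probe set and array, already scaled: after trimming 2% of probe sets at either end, each array averaged 500.17 to 500.22. The program that summarised the probes was not given in the sources consulted. This scaling was kept, 16 was added and log2 taken, which understates the change of dim probe sets. Precision is limited by how many arrays there were. Of 31099 probe sets, 57 controls were left out, and the 15521 whose mean log2 exceeded the median probe set were tested. Probe sets were named from the platform annotation where it gave 1 gene symbol.

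Each passing probe set was regressed on a member with limma 3.58.1 in R 4.3.3 (lmFit, eBayes; tested on simulated data) with Benjamini-Hochberg adjustment over all of them except those of the predictor. Correlations had 2-sided tests with 100000 permutations. The P from permutation of a single pair is unadjusted unless stated. Named genes were the 9 members, the pathway lists, the 10 highest and 10 lowest in r with Gh1, the 5 highest and 5 lowest after removing the difference between animals 1 to 22 and 23 to 43, and neighbours past the threshold. Members and lists were chosen with earlier results of these data known. Alternatives changed the pseudocount, filter, scaling, covariates and animals. Genotypes and pituitary weights were not used here. Sequences were from RefSeq (GRCr8).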

Additional observations from a re-analysis of the deposited data

How the results depend on the processing

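The direction of the relation to Gh1 of each member tested and the 2 calls (Ghrhr and Dlk1) held under pseudocounts of 1 and 64, no filter, subtracted array medians, quantile normalization, the mean of all probe sets of a gene, array quality covariates, limma with trend and robust, permutation, and without animals 38 and 43, except that Sstr2 was at r = -0.00305 with array medians subtracted. With the mean of all probe sets Sstr1 was not tested, and with the stricter filter 1 member was called, since Ghrhr was not tested. The calls were lost with every setting that removes the change along the animal numbers: the number of members called was 0 with the difference between animals 1 to 22 and 23 to 43 as a covariate, a smooth trend, either set alone, or differences between consecutive animals. In that order, r was 0.12, 0.22, 0.11, 0.15 and 0.27 for Ghrhr, and 0.14, 0.30, 0.28, -0.23 and 0.19 for Dlk1. In either set alone limma called 0 probe sets on Gh1, so a call lost there cannot decide whether a relation was absent. Sstr1 turned to 0.00613 in animals 23 to 43. Sstr2 turned to -0.0575 with the covariate, -0.16 with the trend, -0.29 in animals 23 to 43 and -0.22 in consecutive differences. Sstr3 turned to 0.0501 with the covariate and 0.12 in animals 1 to 22.

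Probe sets called higher and lower on Gh1 were 12 and 6 with the covariate, 17 and 8 with the trend, 0 and 0 in each set alone, 57 and 40 in consecutive differences, and 1176 and 1156 after quantile normalization, and 1110 were higher with the stricter filter. Among pairs of other members, 2 were called in the fit described above, 1 without a filter, with array medians subtracted, after quantile normalization and in animals 23 to 43, and 0 with the stricter filter, the trend, array quality covariates, in animals 1 to 22 and in consecutive differences. Entries of lists called higher numbered 17 with the stricter filter, 2 with the covariate, 3 with the trend and 4 in consecutive differences, and those called lower 0, 0 and 1 in the last 3; both were 0 in each set alone.

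Leaving out each animal in turn gave 1726 to 2047 probe sets higher, 1520 to 2165 lower and 2 to 3 members called, with r of 0.51 to 0.61 for Ghrhr, 0.57 to 0.66 for Dlk1, 0.17 to 0.30 for Ghsr, -0.20 to -0.08 for Sstr1, -0.0286 to 0.18 for Sstr2 and -0.39 to -0.25 for Sstr3.

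Of the other genes named or called in a list, these turned sign in r with Gh1. In animals 1 to 22 they were Fbxl14 (-0.57), Igf1 (0.0245), Rgs4 (-0.0161), Plvap (-0.018), Eng (-0.40), Mcm6 (0.0228), Mki67 (0.29), Ccna2 (0.14), Prl (-0.0906) and Stat5a (-0.15). In animals 23 to 43 they were Slc40a1 (0.0084), Fbxl14 (-0.61), Hey1 (-0.11), Vip (-0.52), Foxl2 (-0.0694), Cd68 (0.0557), Csf1r (-0.17), Mrc1 (0.22) and Stat5a (-0.40). With the covariate they were Fbxl14 (-0.58), Vip (-0.0208), Plvap (-0.00896), Eng (-0.15) and Stat5a (-0.22), and with the trend Fbxl14 (-0.38), Vip (-0.0776), Eng (-0.12) and Stat5a (-0.21). In consecutive differences they were Fbxl14 (-0.38), Igf1 (0.10), Rgs4 (-0.041), Vip (-0.12), Plvap (-0.00258), Eng (-0.19) and Stat5a (-0.36). After quantile normalization they were Prl (-0.17) and Jak2 (-0.00925), and without animals 38 and 43 Jak2 (-0.0359). Ttbk2 was at 0.14 as the mean of its probe sets. The cause was not tested. No paired analysis was possible because the animals form 1 group. Omitting animals 38 and 43 within animals 23 to 43, and animal 43 for neighbours, was chosen after seeing the data. Dim genes (Sstr5, Ghr, Ghsr) carry the least signal over background.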
